A study of Rattus norvegicus with 6 samples.

Results

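Transcripts of the enzymes that build isoprenoids from acetyl-CoA were followed in the livers of 3-week-old rat pups. The list held 8 enzymes: Acat2, Hmgcs1, Mvk, Pmvk, Mvd, Idi1, Fdps and Ggps1. Members were taken by gene symbol in the array annotation, and 7 of the 8 had at least 1 probe set (Hmgcs1 was not analysed here), with 12 probe sets in all. A probe set is a group of short array probes that read 1 transcript, and its value is a log2 signal. Each gene is given by its probe set with the highest mean over all 6 arrays. All 7 lay above the brightness limit and were among the 10372 genes tested, of 14217 genes with a probe set.

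The animals were Sprague-Dawley rats, sampled at weaning with 1 Affymetrix array per liver. The control group held 3 pups whose dams ate standard chow, and the high fat group held 3 pups whose dams ate a high fat diet. The question addressed was what a dam's diet leaves in the liver of her weaned pups. The labels name no litters, and pups of the same litter would share a dam, so the p-values measure only the spread between these 6 livers.

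The mevalonate pathway condenses acetyl-CoA units into HMG-CoA, reduces that to mevalonate, and turns mevalonate by phosphorylation and decarboxylation into isopentenyl diphosphate, the building block of all isoprenoids. Idi1 converts this to its reactive isomer, Fdps joins the units into farnesyl diphosphate, and Ggps1 adds another unit to give geranylgeranyl diphosphate. Farnesyl diphosphate is the branch point between cholesterol and the other isoprenoids, such as dolichol, ubiquinone and the lipid anchors of small GTPases. In liver, the transcription factor SREBP2, encoded by Srebf2, is known to switch on most genes of the route to cholesterol when sterols run low.

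Hepatocyte markers were abundant on every array, with a summed log2 level of 17.48 to 17.50 in controls and 17.36 to 17.45 in high fat pups. Some arrays stood apart in other ways. High fat replicate 1 carried pancreatic transcripts: the summed level of 9 exocrine pancreas markers was 15.65 there and 8.45 to 8.90 on the other arrays, with none of the 9 at 0 on any array. High fat replicate 3 had low Xist, at 4.45 against 12.46 to 13.31 elsewhere, and high Y-linked Eif2s3y, at 11.14 against at most 3.99. Control replicate 3 had the highest 3' minus 5' difference of the beta-actin and GAPDH control probe sets, a measure of RNA integrity, at 3.06 log2 units against 1.92 to 2.46. All 7 sinusoidal endothelial markers tested had lower means in high fat pups, where 53.1% of all genes had. Their summed level was 14.25 to 14.49 in controls and 13.44 to 13.82 in high fat pups, and none was at 0. In these bulk samples, fewer cells of a type and less RNA per cell cannot be told apart. The part of the endothelial difference in the results on the enzymes was not tested, and the range of each enzyme's change with 1 array left out is given with its values.

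The 6 enzymes measured between the cytosolic thiolase and farnesyl diphosphate synthase had lower means in pups of high fat dams, while the geranylgeranyl branch enzyme differed by less than the spread between arrays. Idi1 was 10.5-fold lower, Acat2 5.12-fold, Fdps 3.36-fold, Mvd 2.79-fold, Mvk 2.45-fold and Pmvk 2.01-fold. Ggps1 had a log2 change of -0.01, whose sign turned in 5 of 18 alternatives. Means were lower in all 7, as in 53.1% of all genes. None of the 7 passed the adjusted threshold of 0.05 in limma, which 4 genes passed in the whole table (0.0386% of those tested). The adjusted p-values of the 6 lower enzymes ran from 0.166 to 0.343. At an unadjusted p under 0.05, 6 of 7 were lower, where 7.51% of all genes tested were. The median log2 change of the 7 was -1.48, beside -0.021 over all genes tested. It was -0.87 without control replicate 3 and -0.96 with the RNA integrity measure as a covariate. Without high fat replicate 1 it was -1.38 and without high fat replicate 3 -1.68.

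**Figure D1:**
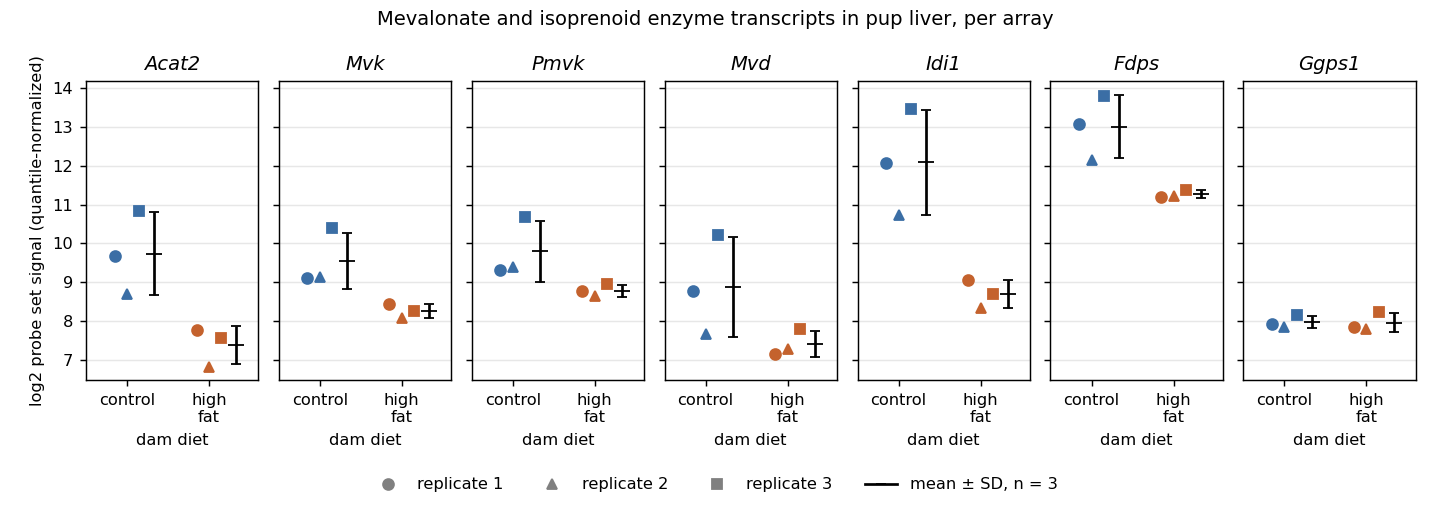
Log2 signal of the brightest probe set of each enzyme on the 6 arrays, with symbols for replicate number and bars for the mean ± SD of 3 arrays; heights of different genes are not comparable because their probes differ. High fat arrays lie below all control arrays for Acat2, Mvk, Pmvk, Idi1 and Fdps, overlap them at 1 array for Mvd, and lie on both sides of them for Ggps1.

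In 5 of 7 enzymes all high fat arrays lay below all control arrays, which 11.5% of all genes did. The difference was at least 2-fold in 6 of 7, against 0.983% of all genes. Without control replicate 3 it was at least 2-fold in 3 of 7 (Acat2, Idi1 and Fdps), against 1.15% of all genes, and with the RNA integrity covariate in 3 of 7, against 1.25%. The enzymes with all high fat arrays below all controls still numbered 5 without control replicate 3, where 16.7% of all genes lay so.

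Since 6 of the enzymes were lower together, their upstream sequence was read for the letters known to be bound by SREBP2 and by its usual partners. RefSeq windows (build GRCr8) of 250 bases before the annotated start were found for 6 of the 7 enzymes, all but Pmvk. The windows below are those of the enzyme with the largest difference, of Fdps and Mvk, and of Ggps1 as the enzyme with the smallest difference. Each runs 5′ to 3′ on the strand of the gene, and capitals mark the NF-Y box CCAAT or, from the other strand, ATTGG. Idi1, Fdps and Mvk are the 3 enzymes with 2 or more of these boxes. The windows of Acat2, with none, and Mvd, with 1, are not printed, so those shown do not stand for all 6.

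Idi1, chr17:66547525-66547774, minus strand: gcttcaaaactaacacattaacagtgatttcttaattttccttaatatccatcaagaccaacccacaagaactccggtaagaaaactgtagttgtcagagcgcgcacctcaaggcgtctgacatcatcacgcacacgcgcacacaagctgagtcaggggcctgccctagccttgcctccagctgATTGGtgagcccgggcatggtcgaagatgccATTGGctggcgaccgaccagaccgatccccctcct
Fdps, chr2:176804817-176805066, minus strand: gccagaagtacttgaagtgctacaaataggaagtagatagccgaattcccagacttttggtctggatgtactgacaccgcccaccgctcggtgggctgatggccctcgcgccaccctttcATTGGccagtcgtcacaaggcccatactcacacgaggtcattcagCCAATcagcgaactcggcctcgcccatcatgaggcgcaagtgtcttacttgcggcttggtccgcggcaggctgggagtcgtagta
Mvk, chr12:47819504-47819753, minus strand: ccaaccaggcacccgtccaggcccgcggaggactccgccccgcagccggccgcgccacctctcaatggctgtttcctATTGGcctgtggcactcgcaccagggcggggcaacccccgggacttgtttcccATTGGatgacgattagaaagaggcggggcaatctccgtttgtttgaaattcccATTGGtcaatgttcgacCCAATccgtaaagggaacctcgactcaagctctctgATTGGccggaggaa
Ggps1, chr17:55958500-55958749, plus strand: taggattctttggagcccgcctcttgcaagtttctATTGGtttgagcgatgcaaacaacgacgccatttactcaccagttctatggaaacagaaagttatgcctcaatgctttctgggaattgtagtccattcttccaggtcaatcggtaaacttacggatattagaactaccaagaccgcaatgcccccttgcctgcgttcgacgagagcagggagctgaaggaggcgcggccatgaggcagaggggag

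The NF-Y box was found in 5 of 6 windows, and in 34.0% of all 33469 promoter windows of this length. Mvk had 5 matches, a number reached by 0.179% of windows, while Fdps and Idi1 had 2 each, reached by 9.42%. Mvd and Ggps1 had 1 match each, in Ggps1 215 bases before the start and in Mvd 35 bases before it, and Acat2 had none. In Idi1 the matches began 66 and 35 bases before the start. The Sp1 box GGGCGG, searched on both strands like the others, was found in 4 of 6 windows (Acat2, Fdps, Mvk and Mvd) and in 30.5% of all. The core of the sterol regulatory element, TCACNCCAC (0.974% of all windows), the longer form of that element, which holds this core and 1 more base (0.23%), and the E-box CACGTG (5.59%) were in none of the 6. These counts describe letters in the windows and say nothing of binding.

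Acat2 encodes the cytosolic thiolase that joins acetyl-CoA units at the entry of the pathway. Its log2 signal was 9.67, 8.70 and 10.83 in control replicates 1 to 3, and 7.77, 6.82 and 7.55 in high fat replicates 1 to 3. The groups did not overlap, with high fat replicate 2 lowest and control replicate 3 highest. The means were 9.74 ± 1.07 (SD, n = 3) and 7.38 ± 0.50 (SD, n = 3), a log2 change of -2.36 (SE 0.53, limma adjusted p = 0.186). With 1 array left out the change ranged from -2.87 to -1.82, the smallest without control replicate 3. Acat1, the mitochondrial thiolase of ketone and isoleucine metabolism, was read by another probe set and had a log2 change of 0.32 (SE 0.16, limma adjusted p = 0.442). Whether the changes of Acat2 and Acat1 differ was not tested.

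Mevalonate kinase, Mvk, adds the first phosphate to mevalonate. Its brightest probe set was at 9.11, 9.14 and 10.39 in controls and 8.43, 8.08 and 8.25 in high fat pups. The groups did not overlap, and control replicate 3 lay more than 1 log2 unit above the other controls. The log2 change was -1.29 (SE 0.35, limma adjusted p = 0.222), from -1.51 to -0.87 with 1 array left out and smallest without control replicate 3. A dimmer probe set of Mvk, at 6.30, 6.35 and 6.54 in controls and 5.22, 5.65 and 5.80 in high fat pups, gave -0.84 (SE 0.19), again without overlap. Here the controls lay close together (SD 0.13, n = 3). The third, at a mean of 3.33, was below the brightness limit of 5.83 and is read no further.

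Phosphomevalonate kinase, Pmvk, adds the next phosphate. Its signal was 9.30, 9.39 and 10.69 in controls and 8.77, 8.63 and 8.94 in high fat pups. The groups came closest here among the enzymes that did not overlap, with 0.36 log2 units between the lowest control and the highest high fat array. The log2 change was -1.01 (SE 0.37, limma adjusted p = 0.304). It ranged from -1.25 to -0.57 with 1 array left out. It was -0.57 both without control replicate 3 and with the RNA integrity covariate.

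Mvd decarboxylates the product to isopentenyl diphosphate. Its signal was 8.78, 7.65 and 10.22 in controls and 7.15, 7.27 and 7.78 in high fat pups. The groups overlapped, since high fat replicate 3 lay 0.13 above control replicate 2. The log2 change was -1.48 (SE 0.60, limma adjusted p = 0.343). Across single arrays left out it ran from -2.10 without control replicate 2 to -0.82 without control replicate 3, and it was -0.96 with the RNA integrity covariate.

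Idi1, the isomerase that readies the units for joining, showed the largest difference of the 7. Its brightest probe set was at 12.06, 10.74 and 13.46 in controls and at 9.06, 8.32 and 8.70 in high fat pups. The lowest control lay 1.69 log2 units above the highest high fat array, the widest gap of the 7 enzymes. The means were 12.09 ± 1.36 (SD, n = 3) and 8.69 ± 0.37 (SD, n = 3), a log2 change of -3.40 (SE 0.63, limma adjusted p = 0.166). The 95% interval ran from -4.89 to -1.90, that is from 29.7-fold to 3.74-fold lower. Leaving out control replicate 2 gave -4.06 and control replicate 3 -2.73, the ends of the range over single arrays left out, with -3.59 without high fat replicate 1. A second probe set gave 11.20, 9.50 and 12.90 against 8.32, 7.35 and 8.14, a log2 change of -3.27 (SE 0.79). Both probe sets ordered the controls alike, with replicate 3 highest and replicate 2 lowest. By unadjusted p the gene ranked 66 among 10372.

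Fdps, farnesyl diphosphate synthase, makes the last intermediate shared by sterols and other isoprenoids. Its signal was 13.07, 12.16 and 13.80 in controls and 11.20, 11.21 and 11.38 in high fat pups. The high fat arrays lay within 0.17 log2 units of each other, and all were below every control. The log2 change was -1.75 (SE 0.38, limma adjusted p = 0.185), from -2.17 to -1.36 with 1 array left out and smallest without control replicate 3. The current RefSeq gene table lists pseudogenes named after Fdps, Acat2 and Idi1, and whether the probes also read those was not tested.

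Ggps1, geranylgeranyl diphosphate synthase, leads away from sterols. Its signal was 7.91, 7.84 and 8.14 in controls and 7.83, 7.79 and 8.24 in high fat pups. High fat replicates 1 and 2 lay just below the lowest control and high fat replicate 3 above the highest. In each group replicate 3 was highest. The log2 change was -0.01 (SE 0.17, limma adjusted p = 0.988), with a 95% interval from -0.42 to 0.40 and values from -0.15 to 0.08 with 1 array left out. A second probe set gave 6.92, 6.59 and 7.69 against 7.42, 7.17 and 6.78, a log2 change of 0.06 (SE 0.31). The third was below the brightness limit at a mean of 5.47, with 5.88, 5.48 and 6.32 in controls and 5.17, 5.85 and 4.12 in high fat pups, a difference of -0.85 (SE 0.49). It overlapped between groups and differed in size from the brighter pair.

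**Figure D2:**
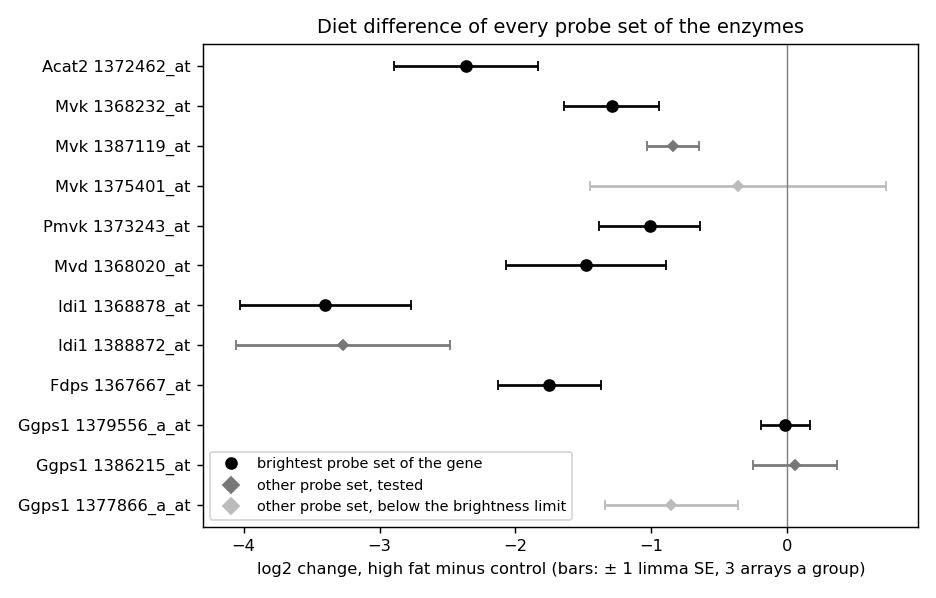
Log2 change, high fat minus control, of all 12 probe sets of the enzymes, with bars of 1 limma standard error on 3 arrays a group. Both Idi1 probe sets lie beyond -3, the tested Mvk pair at -1.29 and -0.84, and the tested Ggps1 pair at -0.01 and 0.06, while the 2 palest points are probe sets below the brightness limit.

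The enzymes were compared with each other within arrays, each relative to its own control mean, in 21 pairs. With 3 arrays against 3 the exact permutation test (2-sided) cannot give a p below 0.1, which 15 pairs reached (adjusted over the 21, p = 0.14). These were the 15 pairs whose within-array difference did not overlap between the diet groups. All 6 pairs with Ggps1 and all 6 with Idi1 were among them. A pair without overlap always gives p = 0.1 in this permutation test, so the p adds nothing to that count. The share of such pairs among all genes was not computed. Pairs with Ggps1, which hardly changed, mostly repeat the difference of the other enzyme. Relative to Ggps1, Idi1 was lower by 2.90, 3.60 and 3.67 log2 units in high fat replicates 1 to 3, and between 1.22 lower and 1.20 higher in controls. Relative to Fdps, Idi1 differed by -1.22, -1.97 and -1.75 in high fat pups and by -0.09, -0.49 and 0.58 in controls. Mvk and Pmvk, the consecutive kinases, stayed within 0.05 log2 units of each other on all control arrays and differed by -0.10, -0.30 and -0.45 on the high fat arrays. Mvd differed from Mvk by no more than the spread between arrays (exact permutation p = 0.7), and from Fdps likewise (exact permutation p = 0.5).

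**Figure D3:**
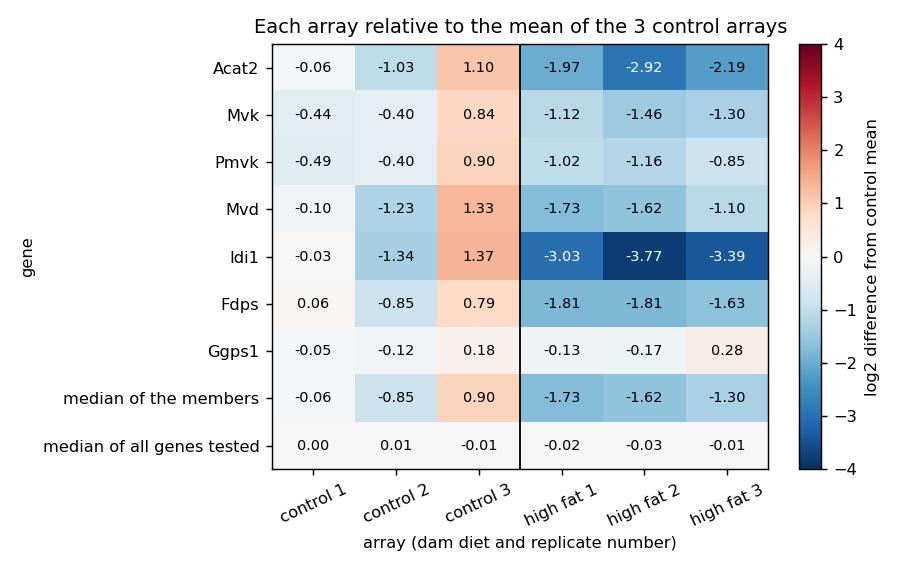
Log2 difference of each enzyme on each array from the mean of the 3 control arrays, with the median of the 7 enzymes and of all genes tested below. The median of the enzymes lies at -0.06, -0.85 and 0.90 in controls and at -1.73, -1.62 and -1.30 in high fat pups, and that of all genes stays within 0.03 of 0.

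In 6 of the 7 transcripts the 3 control livers were spread over a wider range than the 3 high fat livers. The range of the 3 controls was 2.71 log2 units for Idi1, 2.57 for Mvd, 2.13 for Acat2, 1.64 for Fdps, 1.39 for Pmvk and 1.28 for Mvk, against 0.17 to 0.95 in high fat pups. In 6 of 7 enzymes the control range was at least 2 times the high fat range, which held for 24.1% of all genes. For Fdps it was 9.42 times as wide, at 1.64 against 0.17. These ranges include control replicate 3, the array with the highest 3' minus 5' difference, and the part of RNA integrity in the spread was not tested. Between control replicates 1 and 2 alone, the distance was at least 2 times the high fat range for Fdps only (0.91), against 13.1% of all genes. It was 1.32 for Idi1, 1.13 for Mvd and 0.97 for Acat2, still above their high fat ranges of 0.74, 0.63 and 0.95. For Mvk and Pmvk it was 0.04 and 0.09, below their high fat ranges of 0.34 and 0.31. Ggps1 was again the exception, at 0.30 in controls and 0.45 in high fat pups, near the medians of 0.41 and 0.36 over all genes. Control replicate 3 was the highest control for all 7 enzymes, as for 32.6% of all genes, and control replicate 2 the lowest for 5 of 7, as for 30.3%. Idi1, Mvd and Acat2, the enzymes with the widest control ranges, each had a control range wider than 99% of all genes. Among high fat pups no array was highest throughout.

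**Figure D4:**
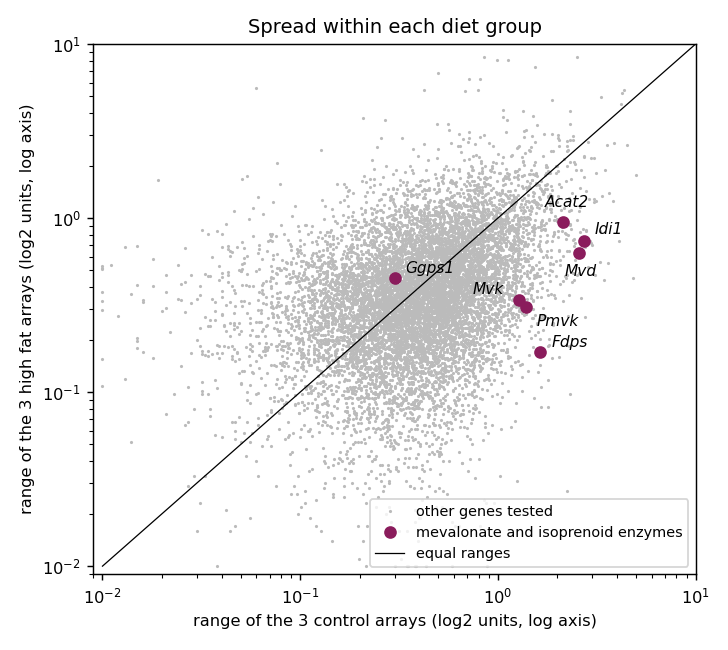
Range of the 3 control arrays against the range of the 3 high fat arrays in log2 units, on log axes, for all genes tested (grey) and the 7 enzymes; ranges under 0.01 are drawn at 0.01, and the line marks equal ranges. Of the enzymes, 6 lie to the right of the line, from 1.28 to 2.71 in controls, and Ggps1 lies inside the main cloud.

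The genes around the enzymes were read from fixed lists. Downstream of farnesyl diphosphate, all 12 genes tested from squalene synthase to cholesterol had lower means, with a median log2 change of -1.76, where 53.1% of all genes had lower means. Of these, 10 had an unadjusted p under 0.05 (none an adjusted one), which 7.51% of all genes had in this direction. Sqle, squalene epoxidase, was at -4.0 (SE 0.59) and Msmo1, which removes methyl groups from sterols, at -2.81 (SE 0.55). The smallest differences were those of Nsdhl at -0.40 (SE 0.19) and Lbr, a sterol reductase also known as a nuclear lamin receptor, at -0.17 (SE 0.23). On the arrays the median of this list lay at -0.10, -0.60 and 0.83 in controls and at -1.60, -2.16 and -1.49 in high fat pups. The median of the 6 enzymes up to Fdps lay at -0.08, -0.94 and 1.0 in controls and at -1.77, -1.71 and -1.47 in high fat pups, and no test of a difference between the lists was made.

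Enzymes that use isoprenoids outside sterols showed no shift of such size. Of 16 tested, 12 had lower and 4 higher means, where 53.1% of all genes had lower means. The median was -0.06, and 3 had an unadjusted p under 0.05 (limma), which 14.1% of all genes had. Fntb, the beta subunit of farnesyltransferase, was at -0.50 (SE 0.17) and its partner subunit Fnta at -0.02 (SE 0.16). Rabggtb, a subunit of the transferase that places geranylgeranyl on Rab proteins, was at 0.46 (SE 0.16) and its partner Rabggta at -0.02 (SE 0.23).

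Genes of SREBP control were mixed. Of the 7 tested, 4 had lower and 3 higher means, where 53.1% of all genes had lower means, and the median was -0.23. Srebf2 was at 9.17, 8.99 and 10.24 in controls and 8.40, 7.75 and 8.34 in high fat pups, a log2 change of -1.30 (SE 0.36, limma adjusted p = 0.224) without overlap. Insig1, which holds SREBP in the endoplasmic reticulum and is itself known as an SREBP target, was at -0.96 (SE 0.42), while its relative Insig2 was at 0.47 (SE 0.19). Stard4, a sterol carrier, was at -0.76 (SE 0.37). Scap, the sterol sensor that escorts SREBP, was at -0.23 (SE 0.17). The proteases that release SREBP, Mbtps1 and Mbtps2, were at 0.09 (SE 0.15) and 0.33 (SE 0.14).

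Supply of cytosolic acetyl-CoA, the substrate of Acat2, was read from 5 genes, of which 4 had lower means, beside 53.1% of all genes. Slc13a5, the citrate importer of the plasma membrane, was at -2.85 (SE 0.44), Acss2, which activates acetate, at -1.09 (SE 0.32), Acly, which splits citrate, at -0.57 (SE 0.45) and the mitochondrial citrate carrier Slc25a1 at -0.47 (SE 0.14). Me1, which supplies NADPH, was at 0.90 (SE 0.13). In mitochondria, all 3 thiolase and ketone genes tested had higher means, where 53.1% of all genes had lower ones. Bdh1, of ketone body exchange, was at 0.83 (SE 0.29), Acat1 at 0.32 and the thiolase Acaa2 at 0.25 (SE 0.13). The adjusted p of these 8 genes ran from 0.129 (Me1) to 0.616 (Acly).

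**Figure D5:**
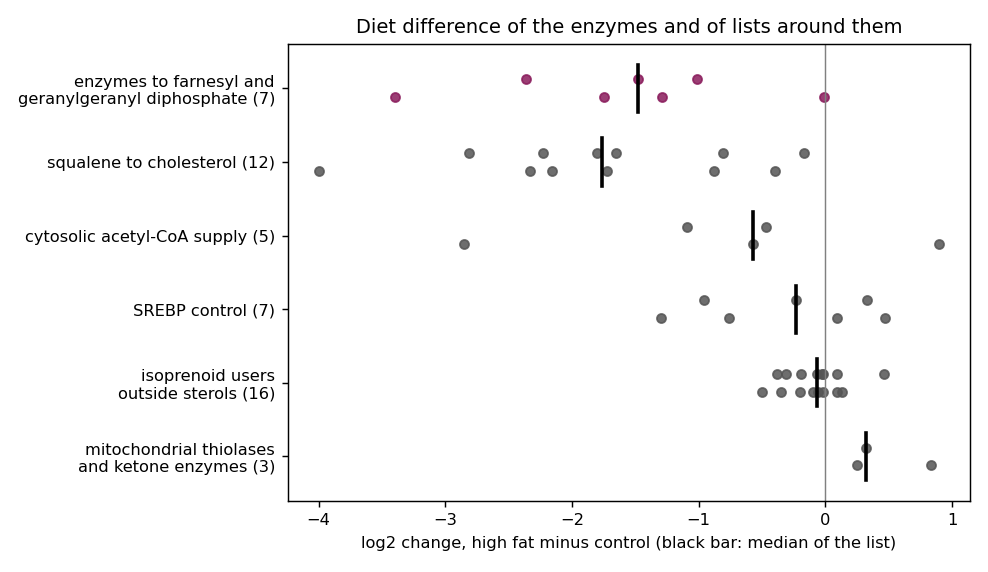
Log2 change, high fat minus control, of each gene (point) in the 7 enzymes and 5 lists around them, with the number of genes tested in brackets and the median as a black bar. The enzymes have a median of -1.48 and the genes from squalene to cholesterol one of -1.76, whereas users of isoprenoids outside sterols cluster at -0.06 and mitochondrial thiolases and ketone genes lie above 0.

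Genes with the profile most like the enzymes were ranked by the root mean square difference from the median profile of the 7, over 6 arrays, each profile centred on its own mean. The median over all genes was 0.932 log2 units by this measure. The closest were Sgk2, a kinase of the SGK family, at 0.198, Hyal3, of the hyaluronidase family, at 0.223, Leng1 at 0.236, Srebf2 at 0.243, Fdft1, squalene synthase, at 0.249 and Acss2 at 0.26. Of the enzymes themselves, Fdps was nearest to their median profile at 0.146 and Mvk at 0.239. Idi1 was farthest, at 0.992, through the size of its difference, and Ggps1 lay at 0.871. Sgk2 was at 8.84, 8.51 and 9.81 in controls and 7.90, 7.66 and 7.57 in high fat pups, with control replicate 3 highest as in the enzymes. The measure includes the diet difference, so the ranking is not independent of it.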

How the data were processed

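Liver RNA of 6 pups was read on Affymetrix rat arrays after TRIzol extraction and 3' IVT labelling, per the labels' protocols. The values deposited by the authors are log2 signals, as found from the values: undoing base 2 gives each array the same 2% trimmed mean, 500.2. The lowest were set to 0 (91 to 144 of 31099 probe sets per array). How probes were summarized into probe sets is not stated in the labels or the file. Arrays were quantile-normalized here, since quartiles differed by up to 0.22 in the deposited log2 values. Of 31042 probe sets outside controls, 20826 had 1 gene in the annotation, 436 several and 9780 none; 20758 matched a current RefSeq gene table. Dim probe sets (mean below 5.83, the lowest 40%) were left out. Differences were tested 2-sided in R 4.3.3 by limma 3.58.1 (linear model, moderated variance) and adjusted by Benjamini-Hochberg over 10372 genes, or over 13921 probe sets where each was its own row. Standard errors of probe sets other than the brightest come from fits with every probe set as its own row (for those below the limit, without the filter). Pairs of enzymes were compared by exact permutation over 10 splits of the arrays. The limma fit, but not the comparison of pairs, was run on simulated data in which genes varied independently. Genes that move together across arrays were not covered. Named genes were the 7 enzymes, every gene tested of the SREBP control list and of the short pathway lists, and the 6 most alike profiles. Of longer pathway lists they were the 2 largest and 2 smallest changes. Xist, Eif2s3y and the marker genes named were chosen after their values were seen, as were the alternatives for the counts of 2-fold differences, of groups without overlap and of ranges. Members, lists and alternatives were chosen with earlier results of these data known. Promoter windows come from RefSeq, with no genome used. Figures used matplotlib 3.10.9. The number of arrays limits the precision.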

Additional observations from a re-analysis of the deposited data

How the results depend on the processing

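Over 18 alternatives (normalization, brightness filter, handling of several probe sets, variance model, array weights, replicate block, RNA integrity covariate, arrays left out), Acat2, Mvk, Pmvk, Mvd, Idi1 and Fdps kept their direction and no enzyme passed the adjusted threshold; the lowest adjusted p was 0.103, for Idi1 with the lowest 60% of probe sets left out. Idi1 ranged from -4.06 to -2.73. Leaving aside the fit on 1 high fat array, 4 to 6 of 7 enzymes had an unadjusted p under 0.05 (limma), all lower. The share of all genes lower at that threshold was 5.31% to 8.33% in these fits. The count was 4 with the RNA integrity covariate (5.78% of all genes). It was also 4 when the first (6.46%) or the second (5.41%) of the high fat arrays was dropped. With 1 array left out the median change of the enzymes ranged from -2.10 (without control replicate 2) to -0.87 (without control replicate 3), and it was -0.96 with the RNA integrity covariate. Ggps1 was at 0.057 with array weights and 0.088 with that covariate, and ranged from -0.15 to 0.08 with 1 array left out; the cause was not tested. At least 2-fold lower were 3 enzymes with that covariate (1.25% of all genes). With 1 array left out they numbered 3 to 6, against 1.15% to 1.36% of all genes, with 3 without control replicate 3 (1.15%). Without control replicate 3, 1 enzyme kept a control range at least 2 times the high fat range, which held for 13.1% of all genes. The mean of all probe sets gave Mvk -0.83 and Ggps1 -0.27. Without high fat replicates 1 and 3, where the lone high fat array is assumed to vary like the controls, Idi1 was at -3.77. With the replicate block, 6 enzymes had an unadjusted p under 0.05 (limma), all lower, as 5.63% of all genes were, and Idi1 an adjusted p of 0.275. Deviations of same-numbered arrays from their group means correlated at -0.128, -0.128 and -0.136, and those of differently numbered arrays at 0.043 to 0.082. Centring on means of 3 arrays constrains these values. They therefore cannot settle whether the numbers pair the arrays. Over all genes 4 passed the adjusted threshold, against 0 with the block (1103 at an unadjusted p under 0.05), with the covariate (1095), or without control replicate 1 (1314) or 3 (1143), and 2 once high fat replicate 1 was dropped. Just 1 passed with no brightness filter, with the lowest 20% left out, or when replicate 2 of either group was dropped.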

Other observations

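Markers of other liver cells were read beside the enzymes, as values only. Of 7 hepatocyte markers tested, 6 had lower means, where 53.1% of all genes had, with a median log2 change of -0.11. None had an unadjusted p under 0.05 (limma). Of 7 sinusoidal endothelial markers, 6 had one, all lower, as 7.51% of all genes tested were. Fcgr2b, an Fc receptor, was at -0.99 and Stab2, a scavenger receptor, at -0.97, and the smallest difference was that of Pecam1, an adhesion molecule, at -0.09. Kupffer cell and macrophage markers had a median of -0.13 (6 tested), stellate cell markers 0.09 (7 tested) and erythroid markers -0.31 (4 tested). Within the stellate list Dcn, a matrix proteoglycan, was at -1.50 and Lrat, which stores retinol, at 0.70, with Reln smallest at 0.05. The lists with under 4 genes tested were lymphocytes at -0.13, cholangiocytes at 0.40, adipocytes at -0.08 and steroid-making cells, with 1 gene, at 0.52. The 5 exocrine pancreas genes tested had a median of 2.35, from high fat replicate 1.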
